A study of Homo sapiens with 10 samples.

Results

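A set of 10 genes of YAP signalling was followed out of 59453 genes in the count tables: CCN1, CCN2, ANKRD1, AXL, CRIM1, AMOTL1, AMOTL2, AJUBA, LATS2 and TEAD1. They were chosen from the CPM per library (counts scaled to library size) of these data, with earlier results known, so their values are a description and carry no test. RNA-seq was done on HAP1, a near-haploid human line whose parent is the leukaemia line KBM-7. Untreated WT cells (clones 2 and 11) were set beside cells lacking the adenine DNA glycosylase MUTYH (labelled MUTYH-/, clones 7 and 8) or the 8-oxoguanine DNA glycosylase OGG1 (labelled OGG1-/, clones 1 and 22). Cells lacking both (labelled MUTYH-/ X OGG1-/, here DKO) gave clones 4 and 14. WT clones 2 and 11 were also collected 24 hours after 100 µM H2O2. Each clone gave 1 library per condition, so a group is 2 clones, and its spread is that between clones. The knockouts (KO) were CRISPR-Cas9 insertions or deletions. Both DKO clones were made from the same OGG1 KO clone, by its product number apparently clone 22. The 2 DKO clones are thus not independent of each other or of that clone. All groups were grown in the same medium.

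YAP and its paralogue TAZ are coactivators that enter the nucleus when the Hippo kinases are inactive and bind DNA through TEAD factors. The LATS kinases phosphorylate YAP and TAZ and hold them in the cytoplasm, while angiomotins and the LIM protein AJUBA act at cell junctions on this step. CCN1, CCN2 and ANKRD1 are the transcripts most often read as a measure of YAP activity, and several inhibitors of the pathway are themselves YAP targets, so the pathway feeds back on itself.

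The promoters of 7 of the 10 genes (10 promoters) were in the RefSeq table on GRCh38.p14, each 250 bases before to 50 after the start of transcription. CCN1, CRIM1 and TEAD1 had no entry. The core of the TEAD motif, GGAATG or its reverse complement CATTCC, was searched on both strands. It was found in 6 of these 10 promoters (60%) and in 4928 of all 35116 promoters (14%). The genes were chosen for YAP signalling, which acts through TEAD factors, and some gave 2 promoters, so these shares carry no test. The CCN2 and ANKRD1 promoters are shown whole because they held more than 1 match, and matches are in capitals. CCN2 (chr6:131951323-131951622, minus strand) had matches starting at positions -169, -104 and -95 from the start. ANKRD1 (chr10:90921038-90921337, minus strand) had matches at -220 and -128.
CCN2: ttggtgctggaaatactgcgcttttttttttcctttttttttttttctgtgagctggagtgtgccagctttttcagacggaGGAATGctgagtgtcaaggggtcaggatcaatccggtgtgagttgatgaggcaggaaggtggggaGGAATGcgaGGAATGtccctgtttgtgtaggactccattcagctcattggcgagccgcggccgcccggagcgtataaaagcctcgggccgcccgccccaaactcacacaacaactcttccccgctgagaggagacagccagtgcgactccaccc
ANKRD1: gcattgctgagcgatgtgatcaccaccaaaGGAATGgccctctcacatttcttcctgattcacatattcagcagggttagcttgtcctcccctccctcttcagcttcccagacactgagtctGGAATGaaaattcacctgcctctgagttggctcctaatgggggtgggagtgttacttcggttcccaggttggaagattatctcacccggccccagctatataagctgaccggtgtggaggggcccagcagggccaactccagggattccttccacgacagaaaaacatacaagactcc
For the other genes, 30 bases around the match are shown. The match in AMOTL2 (chr3:134374499-134374528, minus strand) began at -69, that in AJUBA (chr14:22976884-22976913, minus strand) at -59 and that in AXL (chr19:41226531-41226560, plus strand) at -212. LATS2 (chr13:21061560-21061589, minus strand) had its match after the start, at 10.
AMOTL2: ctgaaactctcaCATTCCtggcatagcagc
AJUBA: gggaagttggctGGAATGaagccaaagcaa
AXL: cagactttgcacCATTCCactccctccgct
LATS2: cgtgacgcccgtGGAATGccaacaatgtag
The AMOTL1 promoter and 1 of 2 promoters each of AMOTL2, AJUBA and AXL did not hold these letters. In AMOTL2, AJUBA and AXL the promoter without a match was the one at the annotated start of the gene. Their matches lay in the promoter further downstream.

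**Figure D1:**
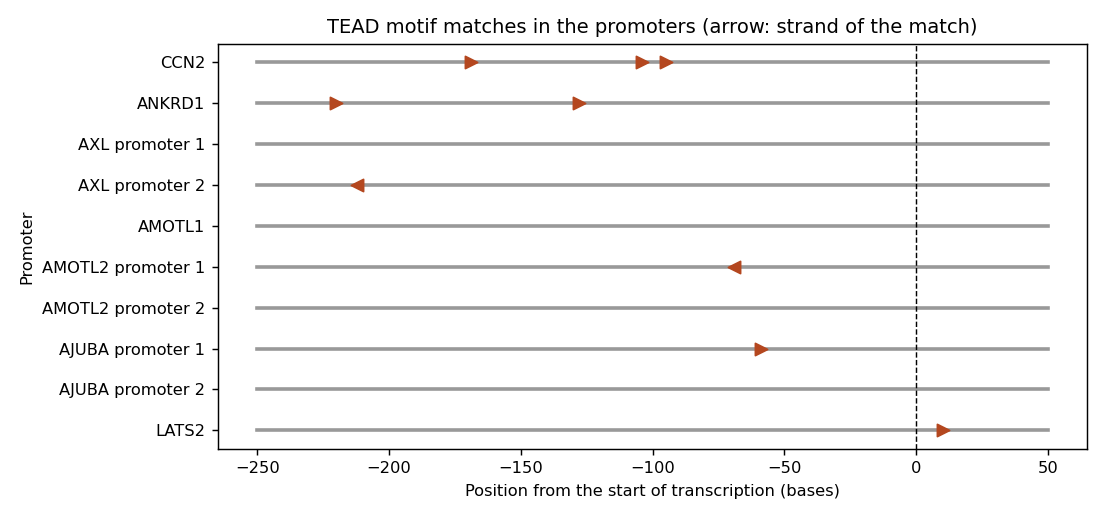
Positions of the TEAD motif core in 10 promoters of 7 genes, in bases from the start of transcription; arrows give the strand of the match and the dashed line the start. CCN2 held 3 matches, ANKRD1 2, and 4 further promoters 1 each.

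Total counts per library ranged from 22225091 to 22674964, and 1 CPM rested on 22.2 counts in the smallest library. Each KO was compared with the same 2 untreated WT libraries, as was the treatment, so the comparisons are not independent. OGG1 had 27 counts in OGG1 KO clone 1, 254 in OGG1 KO clone 22, 215 and 223 in DKO, and 275 and 295 in untreated WT. MUTYH had 50 to 119 counts in all 10 libraries. These are RNA counts, and the paper verified the knockouts at the protein level in all clones, by targeted mass spectrometry. The haematopoietic markers PTPRC and SPI1 were at most 0.136 CPM and MPO had no count, although the line comes from a leukaemia. Summed over 6 such markers, CPM was 0.31 to 0.577 in WT, 0.277 to 0.443 in MUTYH KO, 0.678 to 1.33 in OGG1 KO, 0.97 to 1.48 in DKO and 0.591 to 1.1 in treated WT. The 5 fibroblast markers summed to 16.2 to 49.8 CPM over the libraries, nearly all of it COL1A1 (15.5 to 47.6 CPM). The 4 epithelial markers summed to 36.3 to 68.4 CPM in WT and MUTYH KO and 71.3 to 101 CPM in OGG1 KO and DKO. In treated WT they summed to 44.8 to 73.4 CPM. Nearly all of these sums was KRT8 and KRT18, and CDH1 was at most 0.0888 CPM. The share of all genes that separate the groups in this way was not counted. Of all the markers, CD34 (log2 fold change against WT 2.16 in OGG1 KO and 2.41 in DKO), KRT8 (1.67 and 1.74) and, in DKO, EPCAM (2.22) met the criterion given below. Over all genes, 1.67% met it in OGG1 KO and 1.77% in DKO. CD34 had 3 and 4 counts in WT, 4 and 5 in MUTYH KO, 9 and 23 in OGG1 KO and 15 and 23 in DKO, so it passed the filter on low counts only through the groups where it was high. Without WT clone 2, KRT8 met the criterion in neither KO (1.23 and 1.3) and CD34 did not in OGG1 KO (1.97), while CD34 and EPCAM in DKO still did. Without OGG1 KO clone 22, neither CD34 (1.37) nor KRT8 (1.53) met it in OGG1 KO. Their part in the values that follow was not tested.

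Per length of transcript (RPKM, which is CPM per kilobase of exon), CCN1 was the most abundant of the 10 genes and AXL the least. In the 8 untreated libraries CCN1 had a mean of 51.1 RPKM (7.17 to 97.3), AMOTL2 13.8, TEAD1 13.6, AJUBA 11, CCN2 9.60 (1.2 to 20.1), AMOTL1 7.20, LATS2 6.24, CRIM1 5.40, ANKRD1 0.944 (0.0496 to 2.55) and AXL 0.462 (0.181 to 0.719). Neighbours in this order overlapped in range throughout except CRIM1 (3.71 to 7.52) and ANKRD1. These are bulk libraries, in which fewer expressing cells and less RNA per cell cannot be told apart. AXL lay below every library of the other genes except ANKRD1, whose range also met that of CCN2.

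The secreted genes and ANKRD1 also varied most between libraries. The range of log2 CPM over the 8 untreated libraries was 4.71 for ANKRD1, 4.03 for CCN2 and 3.76 for CCN1. It was 1.89 for AXL, 1.80 for AMOTL2, 1.38 for AJUBA and 1.02 or less for CRIM1, TEAD1, LATS2 and AMOTL1 (0.54). The median range over 14814 genes was 0.68, and 98.4% to 99.2% of those genes had a smaller range than CCN1, CCN2 and ANKRD1. WT clone 2 was the lowest untreated library for 8 of the 10 genes. The exceptions were AMOTL1, lowest in MUTYH KO clone 7, and TEAD1, lowest in OGG1 KO clone 22. The share of all genes lowest in WT clone 2 was not counted, so nothing is read from this number.

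**Figure D2:**
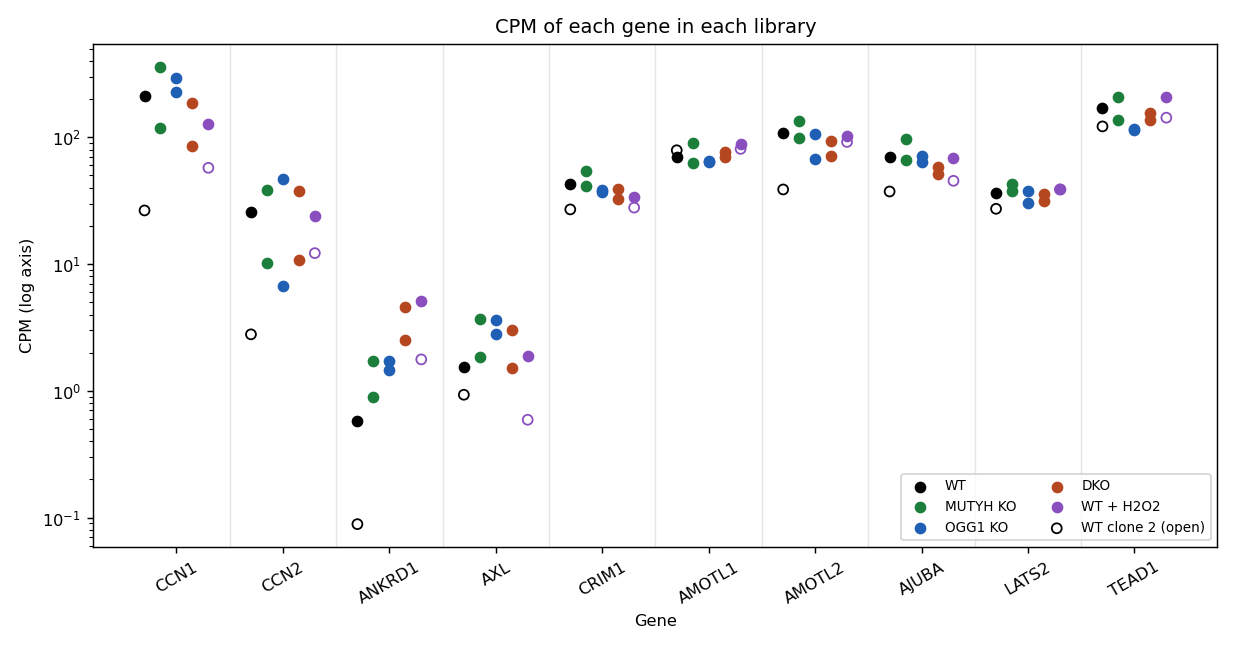
CPM (log axis) of each gene in each of 10 libraries, coloured by group; open circles are WT clone 2, untreated or treated. CCN1, CCN2 and ANKRD1 spread over more than 10-fold in untreated cells. Untreated WT clone 2 is the lowest untreated point for 8 genes, with the share over all genes not counted.

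CCN1 (CYR61; chr1:85580761-85584589, plus strand) encodes a secreted matricellular protein that binds integrins. In untreated WT it had 26.5 CPM in clone 2 and 213 in clone 11, in MUTYH KO 119 in clone 8 and 360 in clone 7, in OGG1 KO 228 in clone 22 and 293 in clone 1, and in DKO 85.6 in clone 14 and 187 in clone 4. Both OGG1 KO clones lay above both WT clones, while MUTYH KO and DKO overlapped with WT. The WT clones alone differed 8.04-fold (95% counting interval 7.39 to 8.77). Against WT the log2 fold change was 1.00 ± 0.91 (SE) in MUTYH KO, 1.12 ± 0.91 in OGG1 KO and 0.19 ± 0.90 in DKO, so 2 of the 3 exceeded their SE.

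CCN2 (CTGF; chr6:131948176-131951372, minus strand), a secreted matricellular protein of connective tissue, is the gene with 3 motif matches above. In WT it had 2.79 CPM in clone 2 and 25.8 in clone 11, in MUTYH KO 10.2 in clone 8 and 38.4 in clone 7, in OGG1 KO 6.66 in clone 22 and 47.1 in clone 1, and in DKO 10.8 in clone 14 and 37.8 in clone 4. Every group thus held 1 low and 1 high clone, and all groups overlapped. The log2 fold changes of 0.76 ± 1.24, 0.91 ± 1.24 and 0.77 ± 1.24 in MUTYH KO, OGG1 KO and DKO were within their SE.

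The 4 high clones of CCN2 (WT 11, MUTYH KO 7, OGG1 KO 1 and DKO 4) were the 4 that stood apart from the other 4 over many genes, a split found in these data and given by no label. Of all 17881 genes tested, 13.8% lay in the same direction without overlap. CCN2 was the 1 gene of the 10 that did so. CCN1 overlapped because of OGG1 KO clone 22. The mitochondrial share of counts was 5.141% to 7.455% in the 4 high clones and 3.753% to 5.017% in the others, and its part was not tested. With the split as a block, CCN1 changed by 1.25 ± 0.51, 1.68 ± 0.53 and 0.55 ± 0.51 and CCN2 by 1.11 ± 0.33, 0.98 ± 0.33 and 1.15 ± 0.33 on the log2 scale in MUTYH KO, OGG1 KO and DKO. The block takes out the clone spread that CCN2 itself follows, so the smaller SE of CCN2 are partly built in.

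ANKRD1 (chr10:90912096-90921087, minus strand) encodes a nuclear ankyrin repeat cofactor best known from muscle. It had 0.0887 CPM in WT clone 2 (2 counts) and 0.576 in WT clone 11 (13 counts). MUTYH KO had 0.887 and 1.71, OGG1 KO 1.73 and 1.45, and DKO 2.51 and 4.57 CPM. All 6 KO libraries lay above both WT libraries, the only gene of the 10 to do so, as did 2.08% of all genes tested. Both DKO libraries were also above the other 4 KO libraries, and the share of all genes that did so was not counted. Log2 fold changes against WT were 1.94 ± 0.75 in MUTYH KO, 2.24 ± 0.75 in OGG1 KO and 3.40 ± 0.74 in DKO. Between DKO and OGG1 KO the difference was 1.16 ± 0.65. At 20 to 102 counts in the KO libraries against 2 and 13 in WT, the size of the change rests on few reads. ANKRD1 passed the filter on low counts only through the KO groups, where it was high. Its separation from WT was thus partly selected for.

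AXL (chr19:41219223-41261766, plus strand) encodes a receptor tyrosine kinase for GAS6. Its CPM was 0.931 in WT clone 2, 1.55 in WT clone 11, 1.86 and 3.69 in MUTYH KO, 3.60 and 2.80 in OGG1 KO, and 3.0 and 1.52 in DKO. MUTYH KO and OGG1 KO lay above both WT clones, and DKO overlapped with WT. The log2 fold change was 1.36 ± 0.51 in OGG1 KO, 1.16 ± 0.51 in MUTYH KO and 0.86 ± 0.51 in DKO. CRIM1 (chr2:36355778-36551135, plus strand), a transmembrane protein that binds bone morphogenetic proteins, ranged from 27.0 CPM in WT clone 2 to 54.7 in MUTYH KO clone 7. Its change was 0.46 ± 0.26 in MUTYH KO and 0.12 or less in the other 2 comparisons with WT.

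The genes of junction proteins differed in the order of the WT clones. AMOTL2 (chr3:134355347-134375479, minus strand), an angiomotin that binds YAP, had 38.8 CPM in WT clone 2 against 108 in WT clone 11, while the KO clones had 67.0 to 135. AJUBA (chr14:22971177-22982551, minus strand), which restrains LATS kinases, had 37.4 CPM in WT clone 2 against 70.5 in WT clone 11, while the KO clones had 51.2 to 97.6. For both genes WT clone 11 lay inside the range of the KO clones and WT clone 2 below all of them. The share of all genes with WT clone 2 below all KO clones was not counted, so nothing is read from this. AMOTL1 (chr11:94706431-94876748, plus strand), the paralogue of AMOTL2, ran from 62.5 to 91.0 CPM, and here WT clone 2 (79.1) was above WT clone 11 (69.4).

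LATS2 (chr13:20973036-21061586, minus strand), the kinase that phosphorylates YAP, ran from 27.3 CPM in WT clone 2 to 43.0 in MUTYH KO clone 8. Both MUTYH KO clones lay above both WT clones, at a log2 fold change of 0.34 ± 0.20. TEAD1 (chr11:12674421-12944737, plus strand), the DNA-binding partner, had 115 CPM in OGG1 KO clone 22 and 209 in MUTYH KO clone 8, with WT at 122 and 172. Its changes were 0.22 ± 0.24, -0.35 ± 0.24 and 0.00 ± 0.24 in MUTYH KO, OGG1 KO and DKO. Positions are of GENCODE v44 on GRCh38. CCN1 and ANKRD1 overlapped no other annotated gene. The other 8 did: CCN2 lies opposite LINC01013, CRIM1 opposite FEZ2 and LATS2 opposite LATS2-AS1. Whether counting used strand is not stated, so reads of these partners cannot be told apart.

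**Figure D3:**
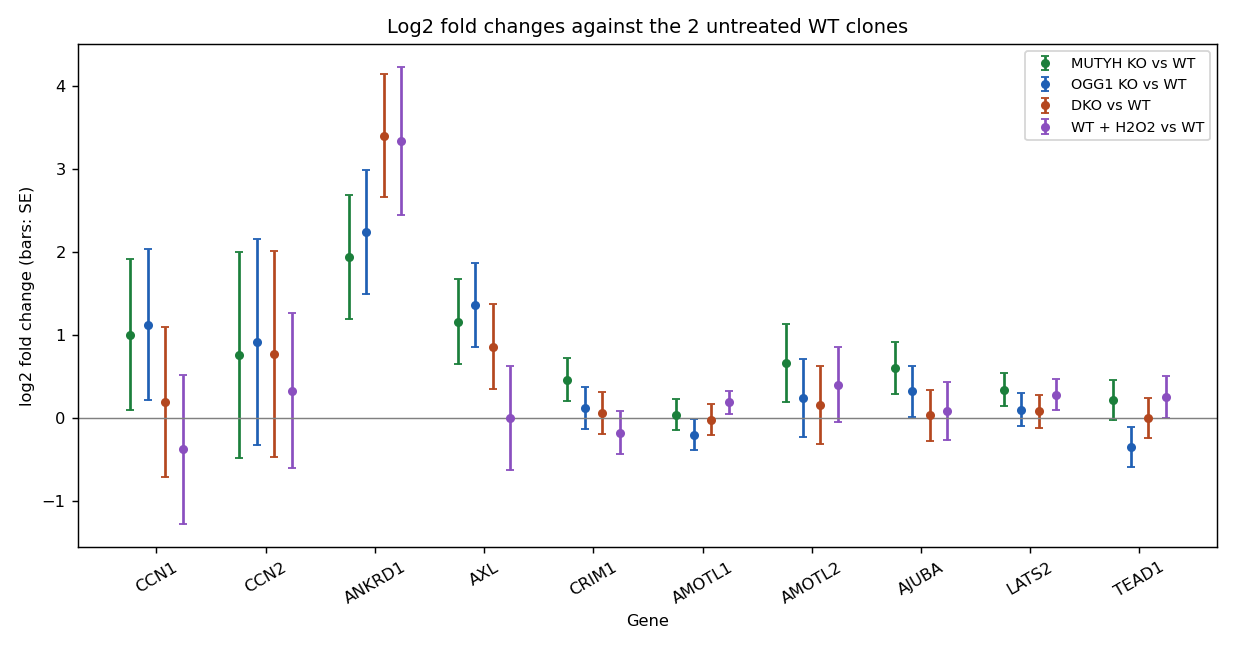
Log2 fold change of each gene against the 2 untreated WT clones in 3 KO comparisons and after H2O2; bars are SE. ANKRD1 is highest in DKO and H2O2 (3.40 and 3.34), while the bars of CCN1 and CCN2 reach 0.90 to 1.24.

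The criterion, taken from the study, was an unadjusted P no greater than 0.05 with a log2 fold change of over 1 in size. In MUTYH KO 1 of the 10 genes met this (ANKRD1), where 1.19% of all genes did. In OGG1 KO 2 did (ANKRD1 and AXL; 1.67% of all genes), and in DKO 1 did (ANKRD1; 1.77%). Between DKO and OGG1 KO none of the 10 met it in edgeR or DESeq2, and none had an unadjusted P under 0.05 in edgeR, where 1.44% of all genes met it. ANKRD1 did in the fit of those 4 libraries alone and without either WT clone. The interaction, the change from OGG1 KO to DKO minus that from WT to MUTYH KO, gave AXL alone (-1.66 ± 0.70; 2% of all genes). AXL did not meet the criterion in OGG1 KO without WT clone 2 (1.04) or OGG1 KO clone 22 (1.18), and its interaction was -1.07 without MUTYH KO clone 7 and -2.23 without DKO clone 14. Nothing is read from these counts, since the genes were chosen on these values. With the split as a block the counts were 3 in MUTYH KO (CCN1, CCN2 and ANKRD1; 1.78% of all genes), 3 in OGG1 KO (CCN1, ANKRD1 and AXL; 2.43%) and 2 in DKO (CCN2 and ANKRD1; 2.44%). The interaction then gave 2, CCN1 (-2.38 ± 0.72) and AXL (-1.64 ± 0.69), where 3.17% of all genes met the criterion. The split was found in these same data, so its SE and calls carry no test.

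By overlap of libraries, 3 genes (ANKRD1, AXL and LATS2) were higher in both MUTYH KO clones than in both WT clones, as were 11.8% of all genes. In OGG1 KO these were CCN1, ANKRD1 and AXL (13% of all genes), and in DKO only ANKRD1 (13.1%). The median log2 fold change of the 10 genes was 0.63 in MUTYH KO, 0.28 in OGG1 KO and 0.12 in DKO, beside 0.01, 0.01 and 0.00 over all genes. It was -0.07 between DKO and OGG1 KO (-0.01 over all genes) and -0.76 for the interaction (-0.02).

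These values depended on which WT clone was kept, and 2 WT libraries cannot tell which clone is the unusual one. The ratio of WT clone 11 to WT clone 2 was 8.04 for CCN1, 9.24 for CCN2 (7.12 to 12.2), 6.49 for ANKRD1 (1.47 to 59.3) and 2.79 for AMOTL2 (2.58 to 3.02), and between 0.877 and 1.88 for the other 6 genes. Thus 4 of the 10 were over 2-fold higher in clone 11, as were 4.4% of all genes. Without WT clone 2, the median of the 10 genes was 0.15 in MUTYH KO, -0.08 in OGG1 KO and -0.18 in DKO. Without WT clone 11 it was 1.35, 1.01 and 0.82. CCN1 in DKO was -0.65 ± 0.68 without WT clone 2 and 2.37 ± 0.79 without WT clone 11, and CCN2 was -0.09 ± 1.25 and 3.12 ± 1.54. ANKRD1 stayed above WT either way, at 1.16, 1.45 and 2.61 in MUTYH KO, OGG1 KO and DKO without WT clone 2. Of these 3, DKO alone still met the criterion. Without WT clone 11 it was 3.79, 4.08 and 5.24. ANKRD1 also did not meet the criterion in MUTYH KO without clone 7 (1.38) or in OGG1 KO without clone 22 (2.11).

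**Figure D4:**
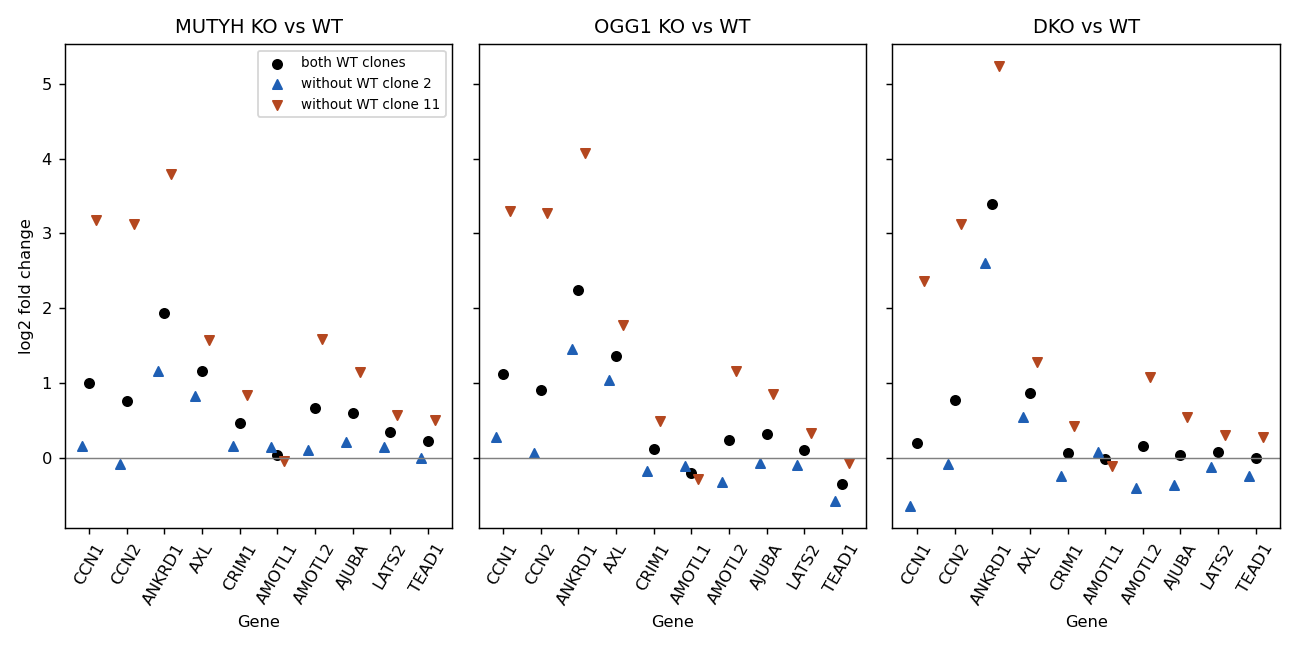
Log2 fold change of each gene in the 3 KO comparisons with both WT clones, without WT clone 2 and without WT clone 11. CCN2 in DKO moves from 0.77 to -0.09 or 3.12, while ANKRD1 lies above 0 in each.

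After H2O2 the same 10 genes were read in the 2 WT clones, each against its own untreated library. ANKRD1 had 1.77 CPM in treated clone 2 and 5.11 in treated clone 11 (39 and 116 counts), against 0.0887 and 0.576 before. Both treated libraries were above both untreated ones. The ratio was 20.0 (95% counting interval 5.17 to 171) in clone 2, which had 2 counts before treatment, and 8.86 (4.99 to 17.1) in clone 11. The log2 fold change was 3.34 ± 0.89, and 3.40 ± 0.42 with clone as a block. ANKRD1 was the 1 gene of the 10 that met the criterion, as did 1.75% of all genes, or 2.78% with the clone block. It was also the 1 with an adjusted p of at most 0.05 with that block (1 residual degree of freedom), as had 2.57% of all genes. Without treated clone 11 the change was 2.39 and did not meet the criterion, and it was 2.55 without untreated clone 2 and 5.19 without untreated clone 11. It passed the filter on low counts through its treated libraries alone. The mitochondrial share was 3.379% and 2.995% in the treated libraries and 5.017% and 5.141% in the untreated ones, and its part was not tested.

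CCN1 and CCN2 did not move alike in the 2 clones. CCN1 went from 26.5 to 57.5 CPM in clone 2, a ratio of 2.17 (1.97 to 2.39), and from 213 to 127 in clone 11, a ratio of 0.597 (0.569 to 0.625). CCN2 went from 2.79 to 12.2 CPM in clone 2, a ratio of 4.36 (3.30 to 5.83), and from 25.8 to 24.1 in clone 11, a ratio of 0.932 (0.828 to 1.05). The clones were thus closer after treatment: clone 11 was 2.21-fold above clone 2 for CCN1 and 1.98-fold for CCN2. Whether clones differ in response was not tested, since each clone had 1 library per condition. Across both clones the log2 change was -0.38 ± 0.90 for CCN1 and 0.33 ± 0.93 for CCN2, and with the clone block 0.13 ± 0.30 and 0.80 ± 0.36.

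AMOTL2 followed CCN2, with 38.8 and then 92.0 CPM in clone 2, a ratio of 2.37 (2.19 to 2.57), and a ratio of 0.948 in clone 11, from 108 CPM. AMOTL1 (81.1 and 89.1 CPM when treated) and LATS2 (38.8 and 39.2 CPM) lay above both untreated libraries in both treated ones, by ratios of 1.03 to 1.42 within a clone. With ANKRD1 this made 3 of 10 genes, as for 21.5% of all genes. TEAD1 had 122 and then 143 CPM in clone 2 and 172 and then 208 in clone 11, while CRIM1 and AJUBA stayed between ratios of 0.798 and 1.21. AXL went from 0.931 to 0.591 in clone 2 (13 counts) and from 1.55 to 1.89 in clone 11. The median log2 change of the 10 genes was 0.22, beside 0.00 over all genes. Without untreated WT clone 2 it was -0.24, without untreated WT clone 11 0.57, and without treated WT clone 11 -0.14.

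**Figure D5:**
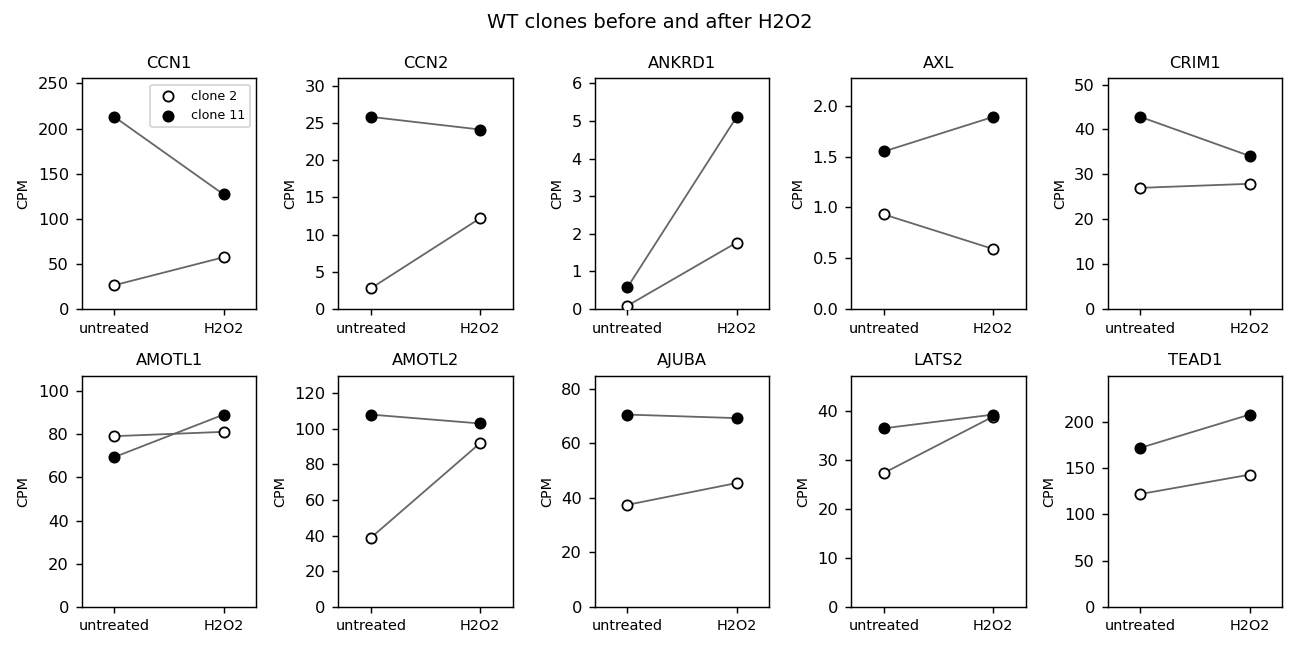
CPM of each gene in WT clones 2 (open) and 11 (filled), untreated and 24 hours after H2O2, each panel from 0 on its own scale; lines join the libraries of a clone. ANKRD1 is higher after treatment in both clones, CCN1 is higher in clone 2 and lower in clone 11.

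Of the pathway regulators outside the 10 genes, none of YAP1, WWTR1, TEAD2, TEAD3, TEAD4, LATS1 and AMOT met the criterion against WT or after H2O2. YAP1 had 82.7 to 111 CPM in the 8 untreated libraries, and its log2 fold changes against WT were 0.10 ± 0.16, -0.12 ± 0.16 and 0.13 ± 0.16 in MUTYH KO, OGG1 KO and DKO. WWTR1, which encodes TAZ, had 62.7 to 131 CPM and changes of -0.04 ± 0.31, -0.45 ± 0.31 and -0.26 ± 0.31. Of the TEAD paralogues, TEAD2 (33.3 to 42.6 CPM) and TEAD4 (43.2 to 54.6 CPM) changed by 0.18 or less in size, and TEAD3 by 0.65 ± 0.25 in OGG1 KO (edgeR adjusted p = 0.999). LATS1, the other LATS kinase, had 46.9 to 74.7 CPM. AMOT, the founding angiomotin, had 47.0 CPM in WT clone 2 against 116 in WT clone 11, while the KO clones had 66.6 to 150. After H2O2 YAP1 changed by 0.28 ± 0.15, WWTR1 by -0.21 ± 0.17 and LATS1 by 0.24 ± 0.13.

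Among 15 other genes of a YAP target signature, 13 had enough counts to be tested. MYOF, a ferlin of the plasma membrane, was the 1 that met the criterion in all 3 KO comparisons, at 1.5 ± 0.64, 1.59 ± 0.64 and 1.98 ± 0.65 (edgeR adjusted p = 1, 0.999 and 1). Over all genes, 1.19%, 1.67% and 1.77% met the criterion in MUTYH KO, OGG1 KO and DKO. The CPM of MYOF was 5.32 and 10.4 in WT, 19.5 and 25.2 in MUTYH KO, 35.9 and 11.7 in OGG1 KO and 17.3 and 44.4 in DKO. MYOF was thus higher in all 6 KO libraries than in both WT libraries, as were 2.08% of all genes, with OGG1 KO clone 1 close to WT clone 11. Without WT clone 2 it met the criterion in none of the 3 (1.10, 1.18 and 1.57). OGG1 KO added NUAK2, a kinase, at 1.01 ± 0.43, and DKO added TGFB2, a TGF-beta ligand, at 1.09 ± 0.34. In MUTYH KO the call of MYOF was also lost with DESeq2 size factors and with a minimum of 10 counts in every library. Leaving out a library of the KO itself also ended calls of MYOF: it was 1.3 without MUTYH KO clone 7, 1.68 without MUTYH KO clone 8, 0.58 without OGG1 KO clone 22 and 1.12 without DKO clone 4. TGFB2 did not meet the criterion without WT clone 2 (0.74) or DKO clone 4 (0.98), and NUAK2 met it in no fit that left out 1 library other than WT clone 11 (0.45 without WT clone 2). The median of the list was 0.28, 0.36 and 0.28.

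After H2O2, 2 of these 13 genes met the criterion, as did 1.75% of all genes (2.78% with the clone block). GADD45A, a growth arrest gene induced by DNA damage, had 7.85 and 6.16 CPM in untreated clones 2 and 11 and 64.2 and 27.0 after treatment. MYOF had 5.32 and 10.4 CPM and then 16 and 20.2. Both treated libraries were above both untreated ones for each gene, as for 21.5% of all genes. Log2 changes were 2.69 ± 0.44 and 1.19 ± 0.36 (edgeR adjusted p = 0.638 for both). With the clone block, which leaves 1 residual degree of freedom, they were 2.60 ± 0.20 and 1.25 ± 0.20. Both then met the adjusted threshold (edgeR adjusted p = 3.72e-05 and 0.00873). Over the alternatives the adjusted p ran from 2.27e-07 to 0.92 for GADD45A and from 0.00873 to 0.92 for MYOF. MYOF did not meet the criterion without untreated WT clone 2 (0.78) or without either treated library (1.02 and 1.34), nor in the fit of all 10 libraries (1.2). The median of the list was 0.01.

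The other pathway lists held few calls against WT or after H2O2, where 1.19% to 1.77% of all genes met the criterion. Of 16 Hippo kinases and upstream genes, FRMD6, a FERM protein upstream of the kinases, met the criterion in OGG1 KO (-1.10 ± 0.37, edgeR adjusted p = 0.999; -0.62 without WT clone 2, and lost without either OGG1 KO clone). No gene of that list did so in MUTYH KO, DKO or after H2O2. None of the 9 genes of YAP, TAZ, TEAD and cofactors did so in the 3 KO comparisons with WT or after H2O2. Of the 4 other CCN genes, only CCN3 had enough counts (0.178 to 1.88 CPM), and CCN4 had no count in any library. SRF and the MRTF factors share many targets with YAP. Of a list of 12 genes, made of SRF, MRTFA and MRTFB themselves and of their target genes, 10 were tested. None met the criterion against WT or after H2O2. The medians of the list, with SRF, MRTFA and MRTFB included, were 0.17, 0.13, 0.11 and 0.04. Of 6 TGF-beta target genes, 4 were tested and none met it there. For the interaction 2% of all genes met the criterion. Of all the pathway lists it gave NUAK2 (-1.59 ± 0.60), FRMD6 (1.34 ± 0.52), AMOT (-1.3 ± 0.54) and ID1 (-1.15 ± 0.24), each at an edgeR adjusted p of 1. Each of these 4 lost its call without at least 1 library. Without WT clone 2, FRMD6 was 0.85, AMOT -0.79 and ID1 -0.98, and without MUTYH KO clone 7 NUAK2 was -1.39.

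Over all 10 libraries, the log2 CPM of CCN1 and CCN2 correlated at Pearson r = 0.773. The highest of the pairs was CRIM1 with AJUBA (0.916), followed by CCN1 with AJUBA (0.912), and the lowest CCN1 with AMOTL1 (-0.641). These libraries share clones and the split described above, and r is given as a description. Among 14777 genes, those most like CCN1 were VLDLR (0.964), PGS1 (0.963), COL4A5 (0.963), GOLGA2 (0.960) and PGAP1 (0.958). For CCN2 they were TENM3 (0.960), ZFYVE26 (0.956), RBM41 (0.953), YIPF1 (0.951) and TMEM43 (0.943). None of the 10 genes was in either set.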

How the data were processed

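The deposited tables hold whole-number read counts per gene and library, not normalized. The authors aligned with HISAT2 2.2.1 (GRCh38) and ran featureCounts on the annotation of Ensembl release 103. The versions are from the submitters' processing notes. Here edgeR 4.0.16 (R 4.3.3) was applied to the counts: TMM factors (0.97 to 1.01), filterByExpr and the quasi-likelihood test (legacy=TRUE), two-sided, with Benjamini-Hochberg adjustment over all genes tested. Genotypes were compared in 1 fit of 8 libraries (17881 genes, 4 residual degrees of freedom) and the treatment in 1 fit of 4 (16997 genes, 2 residual degrees of freedom). P values of fits without a block measure the spread between these clones. With a block they measure only what is left after it. The treatment fit with the clone block has 1 residual degree of freedom. The fit was also run on simulated counts with known changes and the same spread for all genes. The changed genes there had higher mean counts than ANKRD1. This does not show how the fit behaves for genes that vary as these do.

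CPM used TMM factors of all 10 libraries, log2 CPM a prior count of 2 and RPKM the exon length of GENCODE v44. SE came from the F statistic. Counting intervals (95%, exact binomial) cover counting error only. Clone numbers pair the treatment with its control (same clones; r = 0.681 between their clone differences over 16997 genes), and the study's methods use no block, so clone was a block in an alternative. The 10 genes, the lists and the tests were chosen with earlier results of these data known. Named were the 10 genes, list genes that met the criterion, the main pathway regulators, OGG1 and MUTYH, and the 5 genes most like CCN1 and CCN2 over genes with a mean of at least 1 CPM. Alternatives were DESeq2 1.42.0 size factors, its Wald test, legacy=FALSE, other filters, other sets of libraries, the blocks, and leaving out each library.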

Additional observations from a re-analysis of the deposited data

How the results depend on the processing

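The median log2 fold change of the 10 genes was recomputed in 85 alternatives and moved by more than the spread between clones (0.34) in 11, each of which left out a library. Over the fits without 1 library it ran from 0.15 to 1.35 in MUTYH KO, from -0.08 to 1.01 in OGG1 KO, from -0.18 to 0.82 in DKO, from -0.25 to 0.17 between DKO and OGG1 KO, from -1.56 to -0.17 for the interaction and from -0.24 to 0.57 after H2O2. Of 844 values of single genes among the 10, 61 moved. With clone as a replicate block, which pairs the treated and untreated library of a clone, the median after H2O2 stayed at 0.22, while genes meeting the criterion went from 298 to 473 and genes with an adjusted p of at most 0.05 from 0 (1297 at an unadjusted P of at most 0.05) to 437. No other call among the 10 genes changed with that block. Of 239 values of list and marker genes that met the criterion, 49 fell short of it and none changed direction.

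Over all genes, no filter on low counts gave 532, 692, 705, 552, 719 and 510 genes meeting the criterion (MUTYH KO, OGG1 KO and DKO against WT, DKO against OGG1 KO, the interaction and H2O2), and a minimum of 10 counts in every library gave 86, 123, 134, 111, 218 and 195. ANKRD1 could not be fitted under that minimum. The DESeq2 Wald test gave 154 after H2O2, and adjusted p values of at most 0.05 for 11, 12, 14, 12, 21 and 75 genes. The split as a block gave 567 for the interaction. Over the fits without 1 library the counts ran from 117 to 702, 165 to 806, 260 to 673, 194 to 375, 216 to 795 and 217 to 497, with the highest in MUTYH KO, OGG1 KO, DKO and the interaction without WT clone 11 and after H2O2 without untreated WT clone 2. The lone library of a reduced group was assumed to vary like the others. With 2 clones a group, changes above their SE could still miss the criterion, as for CCN1 in OGG1 KO (1.12 ± 0.91).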
